A study of Mus musculus with 26 samples.

Results

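Propranolol blocks beta-adrenergic receptors. The comparison described here asks how gene expression in bone marrow leukocytes differed between mice restrained with propranolol and mice restrained without it, in experiment 1 of the study. Its members are 8 of the 26 labelled arrays, chosen by their sample titles: 3 arrays of restraint plus propranolol and 5 of restraint. All groups were male SCID mice (CB17/Icr-Prkdcscid) aged 6 to 8 weeks, all engrafted beforehand with human acute lymphoblastic leukemia. Their femoral marrow leukocytes were sorted with the leukemia cells gated out. Control mice of experiment 1 (5 arrays) give a reference level, and experiment 2 repeats the comparison on other arrays (3 of restraint plus propranolol against 5 of restraint). The labels used here give no dose, route or schedule of propranolol, no vehicle for the restraint group, no length of restraint and no statement that each array is a separate mouse, so p-values measure the spread between arrays only. SCID mice cannot complete antigen receptor rearrangement, so mature T and B cells are largely lacking in this host.

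Noradrenaline from sympathetic nerves and adrenaline from the adrenal gland reach marrow cells during stress. Their beta-adrenergic receptors couple to the G protein Gs, adenylyl cyclase makes cyclic AMP, and protein kinase A then phosphorylates CREB, a transcription factor that binds cAMP response elements. Immediate early genes such as Fos, Dusp1, Nr4a2 and Per1 are among the classical targets of this route, although growth factor, calcium and cytokine signals reach many of them too.

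The promoters of 3 immediate early genes described below are shown because the palindromic cAMP response element TGACGTCA, or its core TGACG, is what CREB binds. Each line holds the 250 bases before the start site in RefSeq (GRCm38.p6), on the gene's strand, with every TGACG and its reverse complement CGTCA in capitals. Fos lies at chr12:85473640-85473889 on the + strand, Dusp1 at chr17:26508473-26508722 on the - strand and Nr4a2 at chr2:57124004-57124253 on the - strand.
Fos: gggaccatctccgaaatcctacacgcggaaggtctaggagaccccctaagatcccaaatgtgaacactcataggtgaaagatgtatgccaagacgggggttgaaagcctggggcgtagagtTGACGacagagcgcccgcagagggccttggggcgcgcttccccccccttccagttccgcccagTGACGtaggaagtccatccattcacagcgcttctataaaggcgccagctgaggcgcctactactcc
Dusp1: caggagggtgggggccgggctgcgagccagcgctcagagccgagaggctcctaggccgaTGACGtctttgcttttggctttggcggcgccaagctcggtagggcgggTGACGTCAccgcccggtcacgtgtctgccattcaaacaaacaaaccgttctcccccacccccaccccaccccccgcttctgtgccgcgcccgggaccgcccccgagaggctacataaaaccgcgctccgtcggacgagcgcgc
Nr4a2: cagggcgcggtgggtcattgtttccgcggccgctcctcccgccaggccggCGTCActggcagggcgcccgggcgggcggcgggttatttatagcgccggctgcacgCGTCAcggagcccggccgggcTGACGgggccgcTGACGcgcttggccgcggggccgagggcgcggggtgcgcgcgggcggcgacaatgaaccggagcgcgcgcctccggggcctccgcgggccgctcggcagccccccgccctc
The Fos window held TGACG starting 129 and 66 bases before the start site. The Dusp1 window held 1 full TGACGTCA, starting 143 bases before the start site, in which a TGACG and a CGTCA overlap, and a further TGACG at 191. The Nr4a2 window held 4 of these sites, at 200, 144, 123 and 111. Of 32851 promoter windows of this length, 17.8% held TGACG on either strand and 1.55% the full element. These matches describe the letters of the windows.

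The 8 arrays were of similar quality. Between 45.7% and 49.5% of the 25697 probes were detected, with means of 47.6% with propranolol and 47.2% without (exact permutation p = 0.679, 2-sided over 56 assignments). All 9 tested markers of leukocyte identity were detected on all 8 arrays. The 3 propranolol arrays sat on slide 2 together with restraint arrays 4 and 5, while restraint arrays 1 to 3 sat on slide 1 with the 5 controls. Every difference of experiment 1 below is therefore also given, or was checked, within slide 2. In experiment 2, propranolol array 3 stood apart, with 39.5% of probes detected and a mean correlation of 0.853 with the other arrays of its group, and differences of named genes and lists in experiment 2 are given with and without it. Values are log2 intensities after background correction and quantile normalization, a difference of 1 being a doubling, and a level near 4.5 is background. The number of arrays limits the precision.

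No gene passed the test between restraint plus propranolol and restraint in experiment 1. The limma fit over 26 arrays and 10792 genes called 0 at an adjusted p under 0.05, and the smallest adjusted p was 0.471. At an unadjusted p under 0.05 there were 257 genes (2.38% of those tested), 118 higher (1.09%) and 139 lower (1.29%) with propranolol. The arrays of the groups did not overlap for 481 genes (4.46%), 249 higher (2.31%) and 232 lower (2.15%). The median difference over all genes was -0.00125, and the median 95% interval reached 0.56 to either side, which is 1.48-fold (the upper or lower bound over the estimate). When arrays were weighted by their quality, limma called 12 genes, 3 higher (Rabgef1, Nr4a2 and Per2) and 9 lower (Egr1, Fos, H2bc8, Il18r1, Jaml, Jun, Nme7, Rhob and Sh3bp2). Of the other 12 settings 0 called a gene in this comparison, and of the 8 fits that each left out 1 of its arrays 0 did. Fitted on the 13 arrays of experiment 1 alone, the smallest limma adjusted p was 0.070, with 543 genes at an unadjusted p under 0.05. The levels and differences below are therefore descriptions of these arrays, and none of the single genes passed the test without the array weights.

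**Figure D1:**
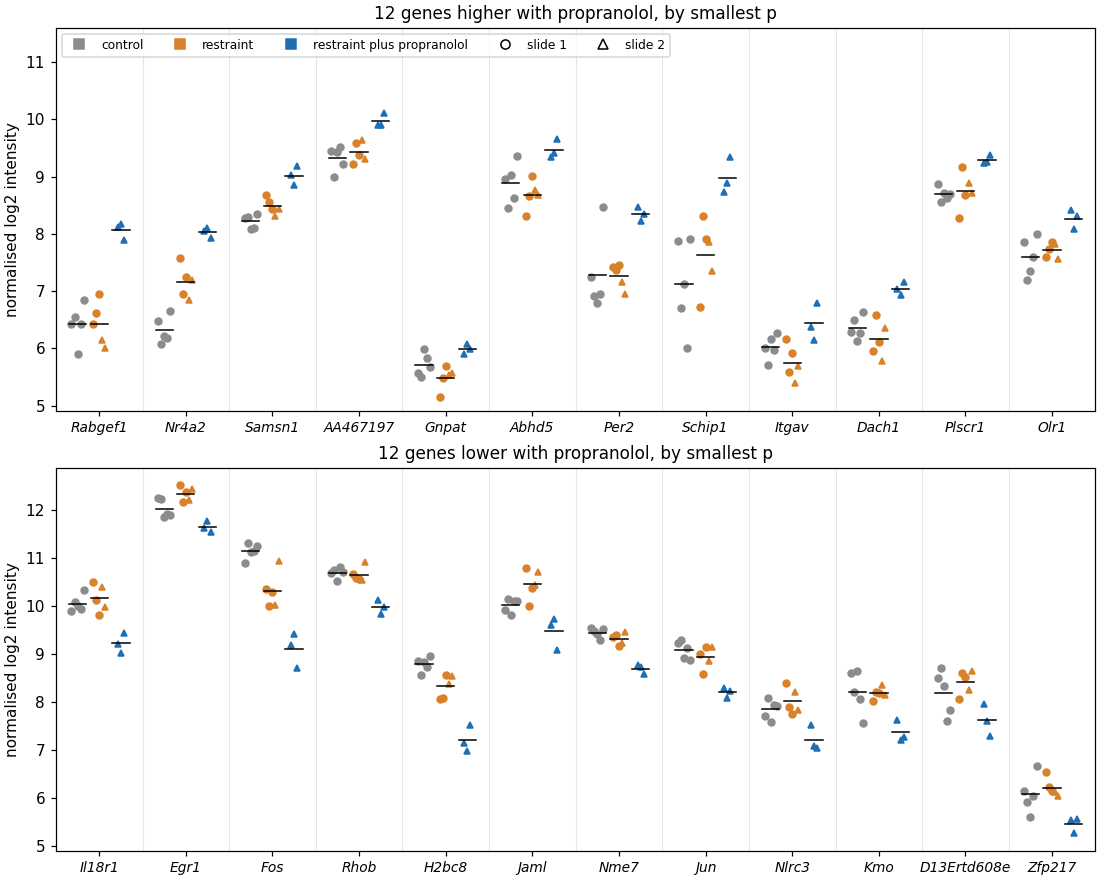
Normalised log2 intensity of the 12 genes higher and the 12 genes lower with propranolol by smallest unadjusted p, in experiment 1. Points are arrays (circles slide 1, triangles slide 2) and lines are group means. The genes were picked by p on these arrays, among those detected on every array of the higher group. Separation of the groups therefore follows largely from the choice. For 23 of the 24 genes the propranolol arrays do not overlap the restraint arrays (4.46% of all genes), and none of the 24 passed the test in the unweighted fit.

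Adrb1 and Adrb3, which encode the beta1 and beta3 adrenergic receptors, were detected on 0 of the 26 arrays and were not tested. Of the 26 tested genes of the receptor and cAMP pathway, 16 were higher and 10 lower with propranolol and 0 passed, with a median of 0.10. None was higher without overlap, and 1 was lower without overlap (2.31% and 2.15% over all genes). The median was 0.01 within slide 2. The 4 members of smallest p were all higher: Pde4a (0.36 ± 0.20), Pde4b (0.31 ± 0.23) and Pde4d (0.49 ± 0.37), which encode phosphodiesterases that break down cAMP, and Crem (0.84 ± 0.53), a cAMP-responsive modulator of transcription related to CREB. For each of these 4 the arrays of the groups overlapped, with unadjusted p between 0.0874 and 0.201. The deposited probes of Pde4d disagreed: the other probe differed by -0.0041.

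Among immediate early genes, Fos and Jun had the most negative differences from restraint. Fos, which pairs with Jun proteins to form the transcription factor AP-1, stood at 10.34, 10.003, 10.30, 10.01 and 10.94 on the restraint arrays and at 9.19, 9.42 and 8.70 with propranolol. All propranolol arrays lay below all restraint arrays. The control arrays, between 10.90 and 11.32, were higher than restraint on average and overlapped it on restraint array 5. The difference was -1.22 ± 0.28 (SE; 95% interval -1.79 to -0.64, unadjusted p = 0.000211, limma adjusted p = 0.471), which is 2.33-fold, and -1.37 within slide 2. Jun, its partner, stood at 8.99, 8.58, 9.14, 8.85 and 9.14 with restraint and at 8.29, 8.08 and 8.22 with propranolol. Again no arrays overlapped, and the controls, at 8.88 to 9.28, shared the range of the restraint arrays (difference -0.74 ± 0.19, unadjusted p = 0.000688, limma adjusted p = 0.942). The list's other Fos and Jun family members differed less and overlapped between groups (Junb -0.45 ± 0.41, Jund -0.25 ± 0.34 and Fosb -0.14 ± 0.25).

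Egr1, a zinc finger transcription factor induced within minutes of many stimuli, was at 12.52, 12.17, 12.38, 12.20 and 12.44 on the restraint arrays. With propranolol it was at 11.63, 11.78 and 11.55. The propranolol arrays lay below every restraint array and every control array (11.84 to 12.26), with a difference of -0.69 ± 0.15 (unadjusted p = 0.000105, limma adjusted p = 0.471). Dusp1 encodes a phosphatase that switches off MAP kinases. It was at 12.46, 12.16, 12.17, 12.11 and 12.82 with restraint and at 11.73, 12.06 and 11.44 with propranolol, without overlap, propranolol array 2 lying close under restraint array 4 (difference -0.60 ± 0.19, unadjusted p = 0.00427). The related Dusp6, which acts on ERK, differed by -0.27 ± 0.12 (unadjusted p = 0.0376). Rhob, an early-response gene for a small GTPase of endosomes, was between 10.54 and 10.92 on the restraint arrays and between 9.84 and 10.11 with propranolol, without overlap (difference -0.68 ± 0.16, unadjusted p = 0.000218). Osm, the gene of the cytokine oncostatin M, was also lower without overlap (difference -0.58 ± 0.21, unadjusted p = 0.0107).

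Other cAMP-inducible genes stood on the opposite side. Nr4a2 encodes an orphan nuclear receptor. It stood at 7.58, 6.95, 7.24, 6.85 and 7.20 with restraint and at 8.06, 8.10 and 7.94 with propranolol. The control arrays were lowest (6.07 to 6.66), the propranolol arrays highest and no arrays overlapped (difference 0.87 ± 0.20, unadjusted p = 0.000219, limma adjusted p = 0.471). Per1, both a clock gene and an early target of cAMP and of glucocorticoids, was at 6.18, 5.57, 5.99, 5.87 and 6.30 with restraint and at 6.55, 7.16 and 6.65 with propranolol, again without overlap (difference 0.81 ± 0.29, unadjusted p = 0.010).

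Over the whole list of 26 tested immediate early and cAMP response genes, 20 were lower and 6 higher with propranolol, with a median of -0.29 against -0.00125 over all genes. Of these, 4 were lower and 2 higher at an unadjusted p under 0.05 (1.29% and 1.09% over all genes). The same numbers did not overlap (2.15% and 2.31% over all genes). The Fos, Dusp1 and Nr4a2 promoters shown above all held TGACG or its complement, and the genes did not share a direction.

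**Figure D2:**
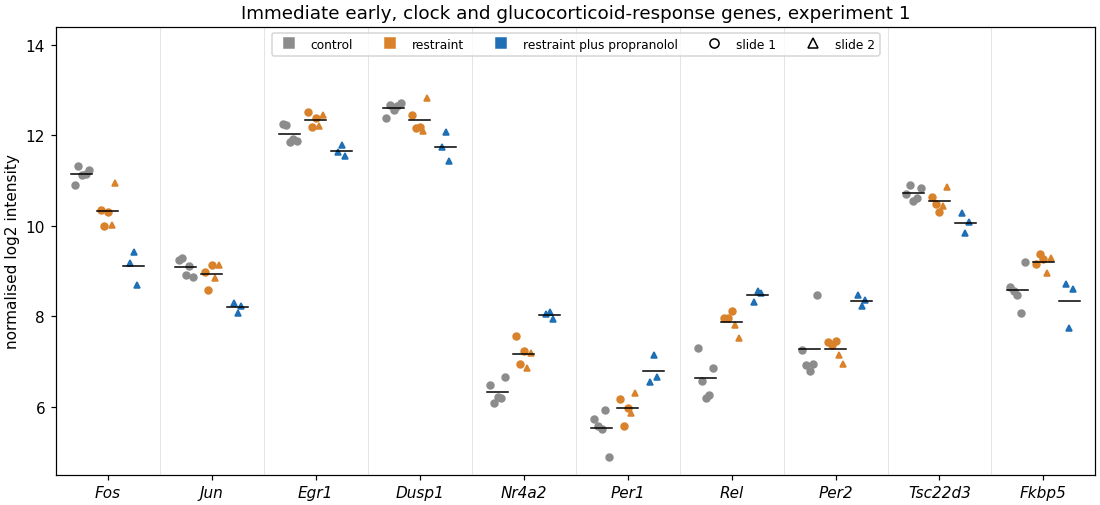
Normalised log2 intensity of 10 immediate early, clock and glucocorticoid-response genes on the 13 arrays of experiment 1. Points are arrays (circles slide 1, triangles slide 2) and lines are group means; Fos, Jun, Egr1, Dusp1, Tsc22d3 and Fkbp5 are lower with propranolol than with restraint, and Nr4a2, Per1, Rel and Per2 higher, without overlap between those groups.

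The circadian clock runs on a loop in which CLOCK and BMAL1 drive the Per and Cry genes, whose products repress them. Per2 stood at 7.43, 7.36, 7.46, 7.16 and 6.94 with restraint and at 8.46, 8.23 and 8.35 with propranolol. The propranolol arrays lay above all restraint arrays and within the span of the controls, which reached 8.46 on 1 array and otherwise 7.26 (difference 1.08 ± 0.32, 2.11-fold, unadjusted p = 0.00282). Its 3 probes gave differences between 0.98 and 1.09. Rora, a nuclear receptor that activates Bmal1, differed by 0.64 ± 0.29 with overlapping arrays, and its other probe by -0.01. Of 15 tested clock genes, 10 were higher and 5 lower, with a median of 0.10. The labels used here give no time of day of collection, and its part in these values was not tested.

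Glucocorticoids are the other arm of the stress response, and their receptor switches on a known set of genes in leukocytes. Of 18 tested members, 5 were lower and 1 higher at an unadjusted p under 0.05 (1.29% and 1.09% over all genes). In sign, 10 were higher and 8 lower, with a median of 0.08. Tsc22d3 encodes GILZ, a glucocorticoid-induced leucine zipper protein. It was at 10.65, 10.49, 10.31, 10.44 and 10.87 with restraint and at 10.27, 9.84 and 10.09 with propranolol, without overlap (difference -0.48 ± 0.19, unadjusted p = 0.0166). Fkbp5, a co-chaperone of the glucocorticoid receptor and itself a target of it, was picked out after its values were seen. It stood at 9.16, 9.37, 9.27, 8.95 and 9.28 with restraint and at 8.71, 7.74 and 8.60 with propranolol, all below the restraint arrays (difference -0.86 ± 0.35, unadjusted p = 0.0224). The controls, at 8.08 to 9.21, spanned both. Sult1a1, a sulfotransferase gene, differed by -1.03 ± 0.31 (unadjusted p = 0.00307), near background on the propranolol arrays (4.36 to 5.33), of which 2 detected it. Cd163, the haemoglobin scavenger receptor of macrophages, differed by -0.58 ± 0.25 with overlapping arrays, and its other probe by 0.14.

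The genes of NF-kappaB signalling were mostly higher with propranolol than with restraint, and none was nearer to the controls. NF-kappaB is a family of transcription factors that drives inflammatory genes. Of 17 tested subunits, inhibitors and targets, 12 were higher and 5 lower than with restraint, the median was 0.12, and 0 passed. The list mean was 8.49 to 8.72 on the propranolol arrays, 8.29 to 8.71 on the restraint arrays and 7.41 to 7.84 on the controls. None of the 17 group means with propranolol was nearer to the control mean than to the restraint mean. The restraint arrays enter both differences, so this count is not independent of them. Rel, the gene of the c-Rel subunit, was at 7.97, 7.97, 8.12, 7.80 and 7.52 with restraint and at 8.32, 8.56 and 8.52 with propranolol. The groups did not overlap, and the controls were lower (6.20 to 7.31; difference of propranolol from restraint 0.59 ± 0.21, unadjusted p = 0.00947). Cd83, a surface marker of activated dendritic cells, also did not overlap (0.52 ± 0.26, unadjusted p = 0.0597), while Icam1, an adhesion molecule for leukocyte integrins, and Bcl3, an atypical inhibitor family member, overlapped (0.43 ± 0.24 and 0.47 ± 0.24).

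The 10 genes in which earlier results of these data showed the largest rises of restraint over control were likewise nearer to the restraint level than to the control level. They included Il1a (the cytokine interleukin 1 alpha), Cd274 (the checkpoint ligand PD-L1), Nlrp3 (an inflammasome sensor), Pim1 (a kinase) and Hcar2 (a receptor for hydroxybutyrate), beside Cd83, Dusp4, Grasp, Hey1 and Rhov. Their mean was 5.13 to 5.89 on control arrays, 6.87 to 7.82 on restraint arrays and 7.10 to 7.83 on propranolol arrays. With propranolol 8 were higher and 2 lower than with restraint, with a median of 0.31, and 0 of the 10 were nearer to the control mean. The restraint arrays enter both differences, so the list and the comparison are not independent.

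Cytokine genes were divided in direction and chemokine genes were more often lower with propranolol. Of 17 tested cytokines, 9 were higher and 8 lower (median 0.01). Csf1, the growth factor of macrophages, differed by -0.83 ± 0.45, and the anti-inflammatory Il10 by 0.92 ± 0.59, both with overlapping arrays. Of 19 tested chemokines and receptors, 14 were lower and 5 higher (median -0.20, range -1.99 to 0.78). Ccl2, which recruits monocytes, was 8.01, 6.27, 7.68, 5.95 and 8.38 with restraint and 5.74, 6.75 and 5.67 with propranolol. The restraint arrays spread widely and the groups overlapped (difference -1.21 ± 0.65, unadjusted p = 0.0759). Cxcl9, a chemokine induced by interferon gamma, was detected on 1 array, propranolol array 1 at 6.46, and stood between 4.36 and 4.68 on the other 7. The proinflammatory set of the CTRA, a stress-related expression profile of leukocytes, divided into 8 higher and 11 lower of 19 tested, with a median of -0.06. The AP-1 members Fos and Jun of that list were lower and Rel higher at an unadjusted p under 0.05.

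Proteases, receptors and matrix genes of the senescence-associated secretory phenotype (SASP), a secretory programme of senescent cells, showed 13 of 20 higher and 7 lower, a median of 0.14 and 0 calls. The widest difference was that of Mmp12, a macrophage elastase, at 7.86, 6.87, 5.59, 7.12 and 6.11 with restraint and 5.11, 5.84 and 4.64 with propranolol. Propranolol array 2 lay above restraint array 3, so the groups overlapped (-1.51 ± 0.78, unadjusted p = 0.063; detected on 2 of the 3 propranolol arrays). Tnfrsf1b, a receptor of tumour necrosis factor, differed by 0.39 ± 0.30 near background.

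DNA repair genes, the other composite that the study's design names, were close to their restraint level. Of 33 tested genes of double-strand break repair, 20 were higher and 13 lower (median 0.02). Rad52, which anneals single strands during recombination, was lower without overlap (5.64 to 6.16 with restraint, 4.79 to 5.50 with propranolol; -0.74 ± 0.32, unadjusted p = 0.0295; detected on 2 of the 3 propranolol arrays). Prkdc, the gene mutated in the SCID strain, was at 4.48 to 4.79 with restraint and at 4.82 to 5.24 with propranolol, and was detected on 1 of the 8 arrays. Of 38 excision and mismatch repair genes, 18 were higher and 20 lower (median -0.03), and the DNA glycosylase gene Mpg, of smallest p among them, was also detected on 1 of the 8 arrays. Gadd45g, a stress-inducible gene of the growth arrest and DNA damage family, was at 11.08 to 11.51 with restraint and at 10.71 to 11.02 with propranolol, without overlap (-0.46 ± 0.19, unadjusted p = 0.0251), and its other probe gave -0.17.

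Genes of DNA replication and mitosis were mostly higher with propranolol. Of 36 tested, 32 were higher and 4 lower, with a median of 0.16 (0.24 within slide 2, 0.06 without restraint array 1), and 0 passed or stood clear of the restraint arrays. For 30 of the 36 the mean with propranolol lay between the restraint and control means, and for 17 it was nearer to the control mean than to the restraint mean. The restraint arrays enter both differences, so these counts are not independent of them. The members of smallest p were Ccna2, the gene of cyclin A2 (0.48 ± 0.27), Mcm3, a subunit of the replicative helicase (0.52 ± 0.31), Cdk2, a kinase of the G1 to S transition (0.35 ± 0.22), and Top2a, the topoisomerase of mitotic cells (0.48 ± 0.31), each with overlapping arrays. Restraint array 1 was the lowest of its group for all 4. The list mean was 7.77 to 8.52 with restraint, 8.27 to 8.55 with propranolol and 8.498 to 8.79 in controls. In bulk sorted cells, a change in the number of cells of a kind and a change in RNA per cell cannot be told apart, here and below.

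Every tested member of the neutrophil granule lists was higher with propranolol. Beside granule protein genes, these lists hold other neutrophil genes, such as S100a8 and S100a9 in the secondary list and Serpinb1a and Ms4a3 in the primary list. Neutrophils make primary granule proteins at the promyelocyte stage and secondary granule proteins later, as myelocytes and metamyelocytes. All 16 tested members of the secondary granule list were higher (median 0.24, range 0.07 to 0.47). Of these, 3 were higher at an unadjusted p under 0.05 and 4 without overlap. Over all genes tested, the shares higher were 1.09% at that p and 2.31% without overlap. Lcn2, which binds bacterial siderophores, stood at 11.23, 11.40, 11.27, 11.52 and 11.46 with restraint and at 11.65, 11.73 and 11.76 with propranolol. Every propranolol array was above every restraint array, by a small margin (0.33 ± 0.13, 1.26-fold, unadjusted p = 0.0204). Olfm4, a granule glycoprotein of a neutrophil subset, and S100a8, a subunit of calprotectin, also did not overlap (0.40 ± 0.17 and 0.28 ± 0.14), and Fcnb, a ficolin, did (0.47 ± 0.23).

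All 8 tested members of the primary granule list were higher too (median 0.20). Those of smallest p were the protease inhibitor gene Serpinb1a (0.33 ± 0.22), the proteases Elane (0.33 ± 0.24) and Ctsg (0.24 ± 0.18), and Ms4a3 (0.21 ± 0.16), with overlapping arrays. Restraint array 1 was the lowest restraint array for Elane, at 9.001 against 9.77 to 10.05. Of 15 markers of mature neutrophils, 12 were higher (median 0.13), including the stefin genes Stfa1 (0.61 ± 0.24, without overlap) and Stfa3 (0.54 ± 0.26), the formyl peptide receptor gene Fpr1 (0.62 ± 0.28, without overlap) and the activating receptor gene Trem1 (0.50 ± 0.30). Stefin genes form a family of close copies, and the array may not separate them. The secondary granule list mean was 10.57 to 11.04 with restraint, 11.03 to 11.17 with propranolol and 10.62 to 11.01 in controls. Within slide 2 the list medians were 0.12 for secondary granules, 0.18 for primary granules and 0.11 for mature neutrophils.

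Natural killer cell genes were lower with propranolol in experiment 1. NK cells are the lymphocytes that SCID mice retain. Of 11 tested, 9 were lower and 2 higher, with a median of -0.66 (-0.26 in the authors' normalized matrix). Ncr1, the NK receptor NKp46, was at 8.35, 7.68, 7.49, 7.20 and 8.23 with restraint and at 7.17, 6.88 and 5.97 with propranolol. The groups did not overlap, but propranolol array 1 lay just under restraint array 4 (-1.12 ± 0.41, unadjusted p = 0.0117). Eomes, a transcription factor of NK maturation, did not overlap either (7.26 to 8.82 and 5.59 to 7.17; -1.46 ± 0.68, unadjusted p = 0.0439). Klrk1, the receptor NKG2D, and Klre1 overlapped (-0.99 ± 0.40 and -0.80 ± 0.39), and were detected on 2 and 1 of the 3 propranolol arrays. The other probe of Klrk1 differed by -0.26, and the authors' normalized matrix gave -0.17 for the gene. The list mean was 6.74 to 7.83 with restraint, 6.25 to 6.88 with propranolol and 6.50 to 7.10 in controls.

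Antigen presentation and interferon genes leaned the same way with smaller differences. All 11 MHC class II presentation genes were lower (median -0.13, range -0.89 to -0.0090), and all 11 overlapped between groups. Ciita, the master regulator of the class, was detected on 2 of 5 restraint arrays and on 0 of 3 propranolol arrays, so the size of its difference is uncertain. H2-DMb1, a chain of the peptide-exchange molecule, differed by -0.50 ± 0.37. Of 29 type I interferon response genes, 20 were lower and 9 higher (median -0.19), all overlapping. Usp18, which removes the ubiquitin-like ISG15 from proteins, was at 8.31, 6.38, 7.63, 6.67 and 8.19 with restraint and at 6.54, 6.97 and 5.50 with propranolol (-1.10 ± 0.64, unadjusted p = 0.0963). Monocyte and macrophage markers were lower for 19 of 26 (median -0.12).

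Erythroid and B lineage genes were near the restraint level with propranolol. In earlier results of these data the 9 largest falls of restraint below control included Alas2, which makes the first enzyme of heme synthesis in red cell precursors, Eraf, a chaperone of alpha globin, Rhd, a red cell blood group protein, and the glycine transporter gene Slc6a9, beside Abcb4, Btnl10, Slc38a5, Tlcd4 and Trim10. Their mean level was 4.64 to 9.67 on control arrays, 4.54 to 5.80 on restraint arrays and 4.68 to 4.95 on propranolol arrays. The last of these ranges is at background, and control array 3 was as low. No member was nearer to the control mean with propranolol. These genes were picked for their fall with restraint and the restraint arrays enter both differences, so the list and the comparison are not independent. Of 22 tested erythroid markers, 7 were detected on none of the 8 arrays and 6 on all 8, and the list mean with propranolol (5.32 to 5.87) lay inside the restraint range (5.28 to 6.33). For 11 B lineage markers the ranges were 5.34 to 5.56 and 5.48 to 5.75, with 3 undetected on all 8 arrays.

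**Figure D3:**
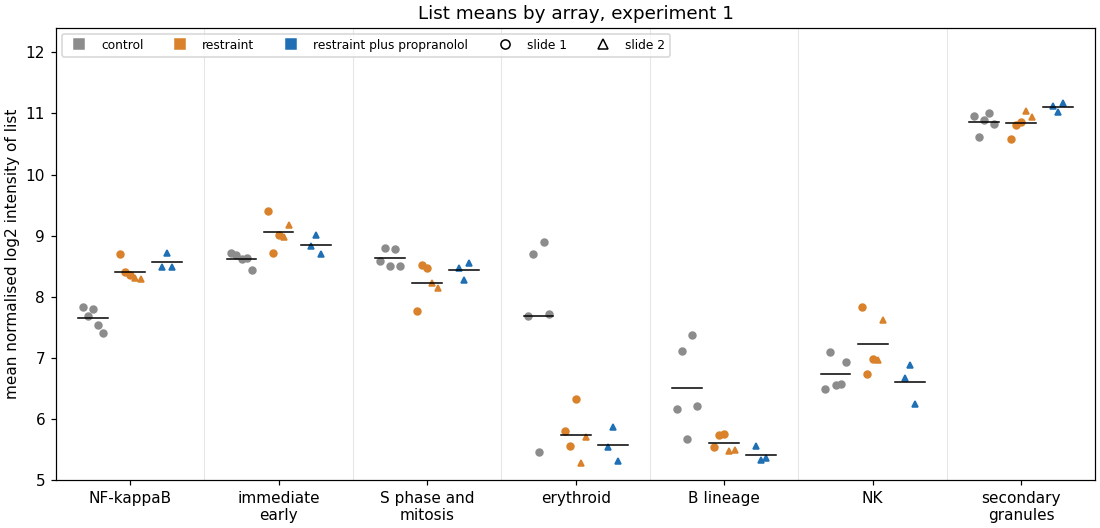
Mean normalised log2 intensity of 7 gene lists on each array of experiment 1. Points are arrays (circles slide 1, triangles slide 2) and lines are group means; with propranolol the NF-kappaB, erythroid and B lineage lists lie near the restraint arrays and away from most controls, the NK list lies lower than restraint on average and the secondary granule list higher.

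**Figure D4:**
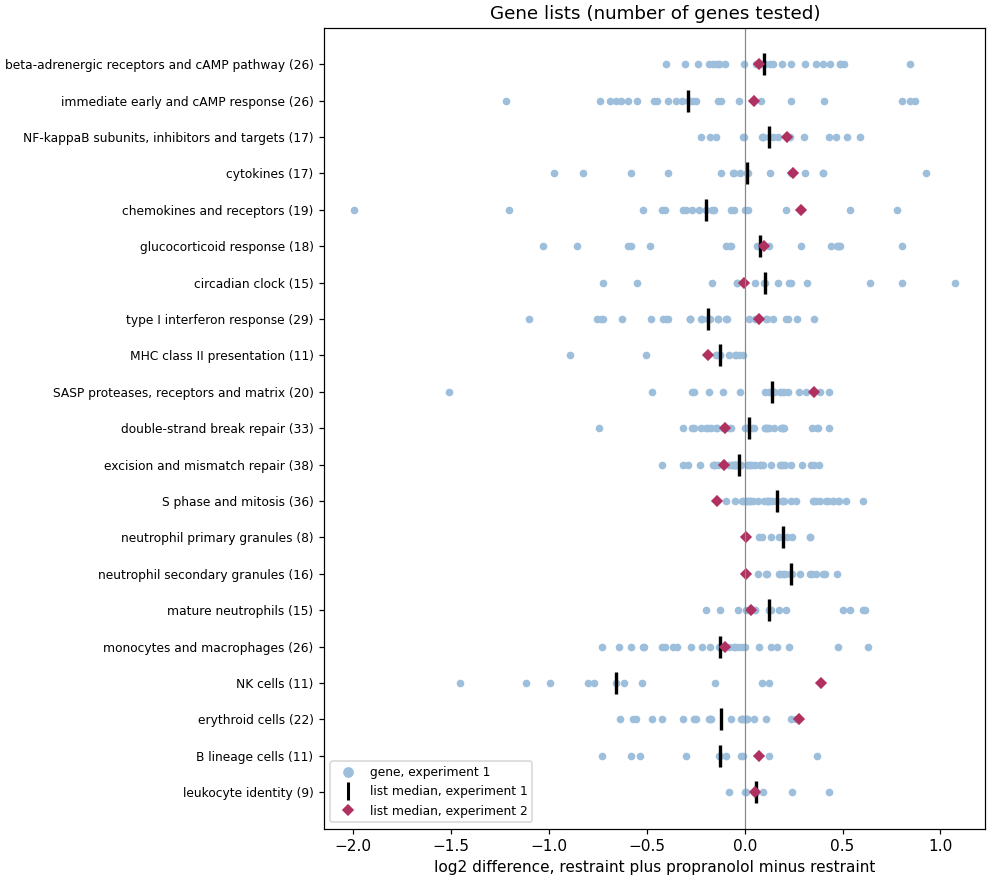
Log2 difference of restraint plus propranolol from restraint for each tested gene of 21 lists in experiment 1 (pale points), with the list median in experiment 1 (bars) and experiment 2 (diamonds, all 3 propranolol arrays). All tested members of the neutrophil granule lists lie above 0 and all MHC class II genes below 0 in experiment 1. The NK median is -0.66 in experiment 1 and 0.39 in experiment 2.

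The genes of smallest p outside these groups came from several functions. Rabgef1, which activates the endosomal GTPase Rab5, showed the widest difference among the higher genes. It stood at 6.43, 6.62, 6.95, 6.15 and 6.01 with restraint and at 8.13, 8.18 and 7.89 with propranolol. All propranolol arrays were above all restraint and control arrays (5.90 to 6.84) (1.63 ± 0.35; 95% interval 0.92 to 2.35, 3.10-fold, unadjusted p = 8.7e-05, limma adjusted p = 0.471).

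Schip1, which encodes a cytoskeletal partner of the tumour suppressor merlin, stood at 6.72, 8.32, 7.92, 7.86 and 7.35 with restraint and at 8.72, 8.88 and 9.34 with propranolol. The groups did not overlap, although the controls alone ranged from 6.01 to 7.91 (1.35 ± 0.41, unadjusted p = 0.00342), and the gene's other probe gave 0.32. Abhd5, a co-activator of triglyceride breakdown, was higher by 0.78 ± 0.23, Samsn1, an adaptor of immune cells, by 0.54 ± 0.15, and AA467197 by 0.55 ± 0.16. Plscr1, a phospholipid scramblase, was higher by 0.54 ± 0.17, Olr1, a scavenger receptor for oxidised lipoprotein, by 0.55 ± 0.18, and Gnpat, an enzyme of ether lipid synthesis, by 0.50 ± 0.15. The transcription factor gene Dach1 was higher by 0.88 ± 0.28 and Itgav, the integrin alpha V chain, by 0.69 ± 0.21. Among these 9 genes, Itgav alone had overlapping groups, and the 4 probes of Dach1 ranged from 0.17 to 0.94.

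On the lower side, Il18r1, the receptor through which interleukin 18 primes NK cells and other lymphocytes, had the smallest p of all genes. It was at 10.50, 10.13, 9.81, 10.40 and 9.97 with restraint and at 9.21, 9.02 and 9.43 with propranolol. No arrays overlapped, and the controls (9.89 to 10.33) sat with the restraint arrays (-0.94 ± 0.20; 95% interval -1.35 to -0.53, unadjusted p = 8.5e-05, limma adjusted p = 0.471). H2bc8, a histone H2B gene with near-identical copies that the probe may also bind, was at 8.07 to 8.56 with restraint and at 6.97 to 7.51 with propranolol (-1.11 ± 0.26, unadjusted p = 0.000289). The histone H2A gene H2ac18 was lower as well (-0.53 ± 0.17), while the list of 31 clustered histones had a median of 0.05.

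Jaml, an adhesion molecule of migrating leukocytes, was at 10.79, 9.99, 10.38, 10.44 and 10.71 with restraint and at 9.61, 9.72 and 9.09 with propranolol, without overlap (-0.99 ± 0.23, unadjusted p = 0.000316). Kmo, the kynurenine hydroxylase of tryptophan breakdown, was at 8.01 to 8.36 with restraint and at 7.21 to 7.62 with propranolol (-0.81 ± 0.22). Nlrc3, which dampens T cell and innate signalling, D13Ertd608e and the zinc finger gene Zfp217 differed by -0.81 ± 0.22, -0.80 ± 0.23 and -0.76 ± 0.22, each without overlap. Nme7, of the nucleoside diphosphate kinase family, differed by -0.62 ± 0.16, but its 5 probes ranged from -0.67 to 0.23. Sh3bp2, an adaptor of immune receptor signalling named because the weighted fit called it, differed by -0.55 ± 0.16 without overlap. Of the antioxidant genes, Sod2, the mitochondrial superoxide dismutase, was higher by 0.42 ± 0.16 and Keap1, the inhibitor of NRF2, differed by -0.45 ± 0.21, both with overlapping arrays, and the 4 probes of Keap1 ranged from -0.45 to 0.03.

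Experiment 2 shares no array with experiment 1 and so gives a second measurement of the same comparison. All 5 of its restraint arrays sat on slide 3 with propranolol array 1, while propranolol arrays 2 and 3 sat on slide 4. Slide and propranolol cannot be told apart for those 2 arrays. Experiment 2 too had 0 genes called (smallest limma adjusted p = 0.124), and 1144 genes (10.6%) at an unadjusted p under 0.05, 492 higher (4.56%) and 652 lower (6.04%). Without propranolol array 3 there were 531 such genes (4.92%), and without propranolol array 2 there were 1906. Its groups did not overlap for 274 genes (2.54%), 125 higher (1.16%) and 149 lower (1.38%). The difference between the experiments was tested as an interaction, which called 0 genes (smallest adjusted p = 0.917; 554 genes, 5.13%, at an unadjusted p under 0.05, and 338 without array 3). Across all 10792 genes the differences of the experiments had a Pearson correlation of 0.04, given as a description since genes are not independent. Of the 257 genes at an unadjusted p under 0.05 in experiment 1, 151 had the same sign in experiment 2 (58.8%, against 51.5% of all genes). Without propranolol array 3 of experiment 2 these became 181 genes (70.4%) against 54.7% of all genes.

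Of the 24 genes taken by smallest p within each direction, 12 higher and 12 lower, 19 had the same sign in experiment 2. These were 9 of the 12 higher and 10 of the 12 lower, and the count was 22 of 24 without array 3. For 10 of them the unadjusted p in experiment 2 was also under 0.05 with that sign, and for 4 of them without array 3. Per2 was at 8.02 to 8.43 on the restraint arrays of experiment 2 and at 8.63, 9.71 and 9.38 with propranolol, again without overlap (0.98 ± 0.32, 0.91 without array 3, unadjusted p = 0.00588 with it). Nlrc3 differed by -0.79 (-0.56 without array 3), Kmo by -0.63 (-0.64) and Samsn1 by 0.39 (0.38), and for these 3 the unadjusted p stayed under 0.05 without array 3. Fos differed by -0.61 with overlapping arrays (-0.52), Schip1 by 1.01 (0.85), H2bc8 by -0.81 (-0.33) and Il18r1 by -0.44 (-0.23), and for these 4, as for Nme7 (-0.42, -0.29 without array 3) and D13Ertd608e (-0.47, -0.36), the unadjusted p did not stay under 0.05 without it.

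Among other genes, Egr1 stood at 11.70 to 11.90 with restraint in experiment 2 and at 12.01, 11.48 and 11.93 with propranolol, a difference of 0.01 ± 0.15, or -0.05 without array 3 (interaction -0.70 ± 0.21, unadjusted p = 0.00278, limma adjusted p = 0.917). Rabgef1 differed by 0.37 ± 0.35, or 0.69 without array 3, with 1 propranolol array at 9.06 and the others at 7.34 and 7.23 (interaction 1.26 ± 0.49, limma adjusted p = 0.917; 0.94 without array 3). Per1 was lower in experiment 2, at 6.34 to 7.22 with restraint and 6.00, 6.21 and 6.46 with propranolol (-0.62 ± 0.29, -0.74 without array 3; interaction 1.42 ± 0.41, unadjusted p = 0.00186, limma adjusted p = 0.917). Itgav also had the opposite sign (-0.45 ± 0.21, and -0.45 without array 3; interaction 1.14 ± 0.30, unadjusted p = 0.000893), and no interaction passed the adjustment, with or without array 3. Fkbp5 and Tsc22d3 were lower in both experiments, by -1.17 and -0.48 in the second, values that became -0.51 and -0.16 without array 3. In experiment 2, Mmp12 (1.47, 0.76 without array 3), Usp18 (1.38, 0.40) and Csf1 (0.27, 0.15) were higher with propranolol, opposite to experiment 1. Il10 was higher in both experiments (1.29 in the second, 0.28 without array 3). Ccl2 differed by 0.045 in experiment 2, or -0.60 without array 3.

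The gene lists did not share one pattern across experiments. The NK median was -0.66 in experiment 1 and 0.39 in experiment 2, or -0.05 without array 3. For Ncr1, the propranolol levels in experiment 2 were 6.04, 5.95 and 7.92, against 5.62 to 6.57 with restraint, and array 3 alone was high. In experiment 2 Klrk1 differed by 0.48 (0.26 without array 3), Klre1 by 0.85 (0.29) and Eomes by 0.15 (-1.08). The chemokine median was -0.20 in experiment 1 against 0.29 in experiment 2 (-0.06 without array 3), and the interferon response median -0.19 against 0.07 (0.05). The immediate early median was -0.29 against 0.05 (-0.05 without array 3), and the replication and mitosis median 0.16 against -0.14 (0.08). The primary granule list had 0.20 against 0.01 (0.23) and the secondary granule list 0.24 against 0.0043 (0.04). The MHC class II median was below 0 in both (-0.13 and -0.19, -0.30 without array 3) and the NF-kappaB median above 0 in both (0.12 and 0.22, 0.17 without it). These medians were not tested.

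**Figure D5:**
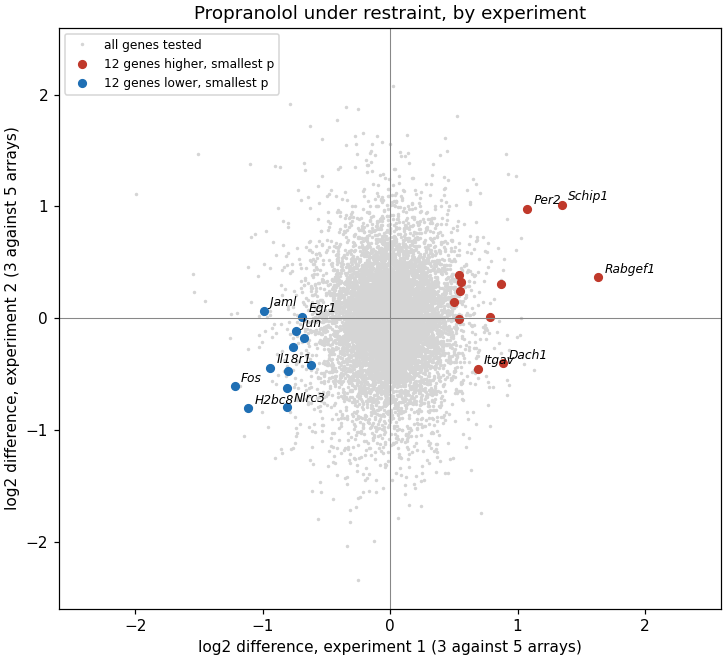
Log2 difference of restraint plus propranolol from restraint in experiment 1 (x axis) and experiment 2 (y axis) for each of 10792 genes, with the 12 higher and 12 lower genes of smallest p in experiment 1 coloured and some named; 1 gene lies outside the axes. Of the 24, 19 have the same sign in both experiments, among them Per2, Schip1, Fos, H2bc8 and Nlrc3, while Itgav, Dach1, Jaml and Egr1 do not.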

How the data were processed

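RNA of sorted femoral marrow leukocytes was amplified and biotin-labelled with NuGEN kits and hybridised to Illumina MouseRef-8 v2.0 beadchips. The submitters' processing notes list GenomeStudio, without a version. Per the file headers, the raw matrix that the authors deposited holds mean bead intensity and a detection p-value for 25697 probes per array, and its values are not scaled between arrays. The authors' deposited normalized matrix holds intensity on a linear scale, by a method not given in the sources used here. It served as an alternative. The raw matrix holds 6 further arrays without labels, which were not used.

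Intensities were corrected with limma 3.58.1 (R 4.3.3; neqc, background from the detection p-values, offset 16, log2, quantile normalization over 26 arrays). Kept were probes whose detection p was under 0.05 on 3 or more of the 26 arrays, 15061 probes of 10792 genes. A gene is read from its kept probe of highest mean. Symbols were updated through RefSeq, for 23788 probes by gene ID and for 1148 by accession. The fit (lmFit, eBayes) held 6 groups of condition by experiment. Genes were called at an adjusted p under 0.05 (Benjamini-Hochberg over all probes), and errors are standard errors of that fit. The scripts were tested on simulated data.

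Members, gene lists and the rule for named genes were chosen with earlier results of these data known. In each direction the rule took the 12 largest changes among called genes. Where fewer were called, it filled up by the smallest p among genes detected on every array of the higher group (all 24 here). It also took receptor genes of the drug (not all reported here), up to 4 genes of smallest p in each list, and the 2 lists of largest restraint changes. Fkbp5, Sh3bp2, Junb, Jund and Fosb are outside it and were chosen after their values were seen. The lists rest on general knowledge and are described by counts and medians, without a test. Alternatives were other sets of arrays, slide as a fixed or random term or slide 2 alone, replicate number as a block, array weights, median scaling, an offset of 50, other probe filters, averaged probes, the authors' matrix, and each array left out in turn. Equal replicate numbers did not pair the arrays: residual correlations of same-numbered restraint and propranolol arrays were -0.15, -0.26 and 0.04.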

Additional observations from a re-analysis of the deposited data

Results flagged for a closer look

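An array far from the rest of its group was looked for among the 5 restraint and the 5 control arrays of experiment 1, for each of the 74 genes whose difference and alternatives are given, by Dixon's test at its 95% critical value. Chance passes about 1 group in 20, and 5 of 148 (3.38%) did. Elane was lowest on restraint array 1, at 9.001 against 9.77 to 10.05 on the other 4. The other cases were controls, which do not enter the comparison. On control array 5, Per2 was high (8.46, others 6.79 to 7.26), Sult1a1 was high (6.03, others 4.83 to 5.17) and Top2a was low (6.75, others 8.05 to 8.15), and on control array 3 Stfa1 was high (10.38, others 9.22 to 9.55). The groups of 3 propranolol arrays are too small for this test. No difference between the experiments passed its adjusted test.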

How the results depend on the processing

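The count of genes called in experiment 1 was 0 in every setting but array weights, which called 12 (3 higher, 9 lower, adjusted p from 0.00323), and ranged from 0 to 0 over the 8 fits with 1 array left out, with 139 to 292 genes at an unadjusted p under 0.05. The lowest of these, 139, was without propranolol array 3. The signs of the 74 named genes held in all 1554 combinations of gene and setting, of which 12 crossed the threshold, all under array weights. Across settings the difference ranged from -1.38 to -1.02 for Fos, from -0.75 to -0.64 for Egr1, from 0.92 to 1.98 for Rabgef1 and from 0.57 to 1.30 for Per2. Of 44 list medians, 21 kept their sign in every setting, among them those of immediate early, NF-kappaB, MHC class II, NK, granule and replication genes, and the erythroid and B lineage medians did not. Their sizes moved: the NK median ranged from -0.83 to -0.26, immediate early from -0.37 to -0.24, NF-kappaB from 0.04 (without propranolol array 2) to 0.20, MHC class II from -0.20 to -0.03 (the last without propranolol array 3), replication from 0.06 (without restraint array 1) to 0.25, secondary granules from 0.12 to 0.30, primary granules from 0.10 (without restraint array 1) to 0.27, interferon response from -0.38 to -0.06 (without restraint array 5) and chemokines from -0.30 to -0.09 (without propranolol array 1). In experiment 2, slide as a fixed term called 43 genes, and leaving out 1 array called 0 to 308. The 308 came without propranolol array 2, and 2 were called without restraint array 1 and 2 without restraint array 2. The interaction called 0 to 17 genes with 1 array left out, the 17 again without propranolol array 2 of experiment 2. With slide as a fixed term it called 9 genes, 2 with a positive and 7 with a negative interaction (smallest limma adjusted p = 0.00265). The causes were not tested. With the replicate block, which uses numbers that did not pair the arrays, 0 genes were called in experiment 1 (345 at an unadjusted p under 0.05), 0 in experiment 2 and 0 in the interaction. With 3 and 5 arrays, the median 95% interval of a gene is 0.56 to either side. At that width, a smaller difference has an interval that includes 0, while genes of smaller spread have narrower intervals. Genes near background, such as Sult1a1, Rad52 and Mmp12, are measured less firmly than those well above it.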
